A study of Mus musculus with 2 samples.

Results

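Chemokine ligands and their receptors were examined in RNA sequenced from the stomach of mouse embryos at day 16.5 of gestation. The set held every protein-coding gene present in both gene tables whose mouse symbol is a numbered Ccl, Cxcl, Ccr, Cxcr or Ackr name, Cx3cl1, Xcl1 or Xcr1. These symbols leave out some members of the family, among them the CX3C receptor gene Cx3cr1 and the CXC ligand gene Pf4, which are described apart. It came to 58 of 21474 protein-coding genes, of which 37 encode ligands, 17 signalling receptors and 4 atypical receptors. Of the 66 annotated genes that fitted the names, 7 lie on unplaced scaffolds and were in neither table, and Cxcl11 was left out because its annotated class is not protein-coding.

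The study profiled a single group of 2 biological replicates, both pooled from B6NCrl embryos of either sex, so no treatment or genotype was compared. The labels give 41 embryos for replicate 2 and no number for replicate 1, and name the same donor strain for both. Each library was made from 10 ng of RNA longer than 200 nucleotides. With 1 group there is no test, and a difference between the libraries measures only how far these pools lay apart.

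The libraries held 44567153 expected counts (the depositors' estimate of reads per gene) in replicate 1 and 25677702 in replicate 2. Epithelial markers were present: all 6 glandular and all 6 squamous ones reached 1 TPM (a length-corrected measure of a gene's share of all transcripts) in both libraries. The summed level of 7 skeletal muscle markers was 2031 TPM in replicate 1 and 172 in replicate 2, whereas that of the squamous markers was 4027 and 6946 TPM. Pancreas and liver markers were detected in both pools, with sums of 9662 and 10196 TPM and of 1213 and 966 TPM, so the level of a chemokine gene cannot be assigned to stomach cells alone.

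Chemokines are small secreted proteins, a few of them tethered to the membrane, that guide migrating cells along gradients held on the matrix and on cell surfaces. They bind G protein-coupled receptors that signal through inhibitory G proteins, while atypical receptors bind the same ligands without that signal and take them up. Homeostatic members place cells during development and in resting tissue, and inflammatory members are induced at sites of infection or damage. In the gut they are known for bringing in macrophages, eosinophils and, after birth, lymphocytes.

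The classes are named for the spacing of the cysteines near the mature amino terminus, shown here for ligands at the top of the list and for the single-cysteine class. Lines are coding sequence, 5′ to 3′, with cysteine codons in capitals.
Cxcl12: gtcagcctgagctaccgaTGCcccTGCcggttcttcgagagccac
Cxcl13: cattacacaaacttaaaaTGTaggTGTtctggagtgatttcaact
Ccl11: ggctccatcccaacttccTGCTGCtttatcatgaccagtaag
Ccl21a: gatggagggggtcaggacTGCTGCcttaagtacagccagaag
Ccl25: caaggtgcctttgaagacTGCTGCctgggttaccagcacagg
Cx3cl1: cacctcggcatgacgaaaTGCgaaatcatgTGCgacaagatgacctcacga
Xcl1: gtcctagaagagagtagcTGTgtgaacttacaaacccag

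On GRCm38 the Cxcl12 stretch is chr6:117171490-117171534 on the plus strand, in exon 2. That of Cxcl13 is chr5:95958646-95958690 (plus, exon 2). The Ccl11 stretch joins exons 1 and 2 within chr11:82058042-82061719 (plus), and that of Ccl25 joins exons 2 and 3 within chr8:4349891-4353920 (plus). The Ccl21a stretch is chr4:42773717-42773758 (minus, exon 2), that of Cx3cl1 chr8:94778033-94778083 (plus, exon 2) and that of Xcl1 chr1:164932957-164932995 (minus, exon 2). A search of codons 21 to 120 for cysteine codons (TGC or TGT) on the coding strand found an adjacent pair in 23 ligands, a pair split by 1 codon in 12, a pair split by 3 codons in Cx3cl1 and a lone cysteine in Xcl1. Of these classes, 11 of 23, 5 of 12, 1 of 1 and 0 of 1 were detected, where detection means 1 TPM or more in both libraries.

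Of the 58 genes, 23 were detected, or 39.7%, beside 64.3% of all protein-coding genes and 35.5% of all annotated genes. Detection was uneven over the classes of molecule, with 17 of 37 ligands, 3 of 17 signalling receptors and 3 of 4 atypical receptors. The summed level of the ligands was 389 ± 11.3 TPM (SD, n = 2 libraries, as for every mean ± SD here), that of the signalling receptors 19.8 ± 3.68 and that of the atypical receptors 27.8 ± 3.85. In this bulk RNA, fewer cells of a type and less RNA per cell cannot be told apart.

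A few genes carried most of the signal. Cxcl12, Ccl11, Ccl21a, Ccl27a and Cxcl13 together took 78.0% ± 1.59 of the summed ligand TPM. Ackr3, Cxcr4, Ccr2, Ccr1 and Ackr1 took 82.4% ± 1.56 of the summed receptor TPM. In the order of the 23 detected genes by mean level, the libraries of 8 of 22 neighbouring pairs did not overlap: Cxcl12 lay above Ccl11, Ccl11 above Ccl21a and Ccl21a above Ccl27a in every library, but Ccl27a could not be ranked above Cxcl13, nor Cxcl13 above Ackr3.

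**Figure D1:**
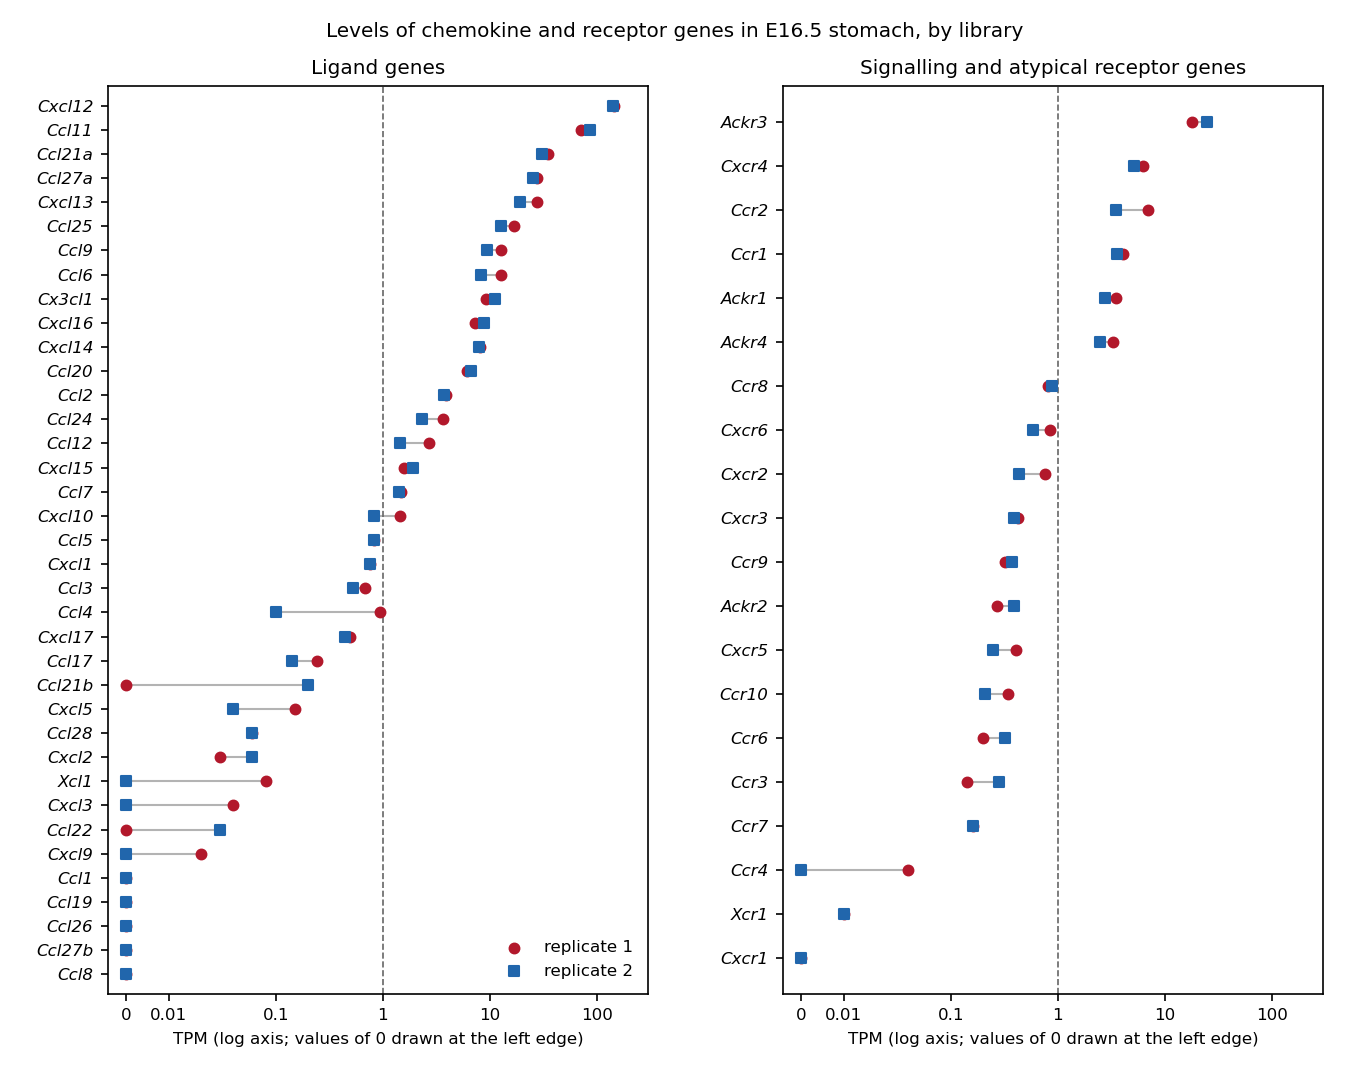
TPM on a log axis for the 37 ligand genes (left) and 20 receptor genes (right) in replicate 1 (circles) and replicate 2 (squares), ordered by mean, with grey lines joining the libraries. The dashed line marks 1 TPM; 17 ligands and 6 receptors have both points to its right, and 6 genes are listed at 0 in both libraries.

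Cxcl12 (ENSMUSG00000061353; chromosome 6, 117168535 to 117181367, plus strand), a homeostatic ligand that holds and guides progenitor cells, endothelium and neurons in development, led the set. Its level was 145 and 141 TPM in the 2 libraries, from 9175 and 4902 counts, higher than 95.5% and 95.1% of protein-coding genes. The libraries were close, and the gene alone took 36.8% ± 0.309 of the ligand signal. Its signalling receptor Cxcr4 (ENSMUSG00000045382; chromosome 1, 128588199 to 128592293, minus) stood at 6.18 and 5.09 TPM. Its atypical receptor Ackr3 (ENSMUSG00000044337; chromosome 1, 90203980 to 90216751, plus), which takes CXCL12 up and so shapes its gradient, was at 17.99 and 24.9 TPM. The scavenging receptor therefore lay above the signalling one in both libraries, and the ligand above both.

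Most Cxcl12 RNA was assigned to the transcript with the shortest coding end. The gene's coding transcripts share their first 267 coding bases and part after them, so the end tells the forms apart. Shown is the end of each, with the part not shared in capitals, the stop codon included.
Cxcl12-202: ctggagaaagctttaaacaagTAA
Cxcl12-203: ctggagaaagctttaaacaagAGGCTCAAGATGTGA
Cxcl12-201: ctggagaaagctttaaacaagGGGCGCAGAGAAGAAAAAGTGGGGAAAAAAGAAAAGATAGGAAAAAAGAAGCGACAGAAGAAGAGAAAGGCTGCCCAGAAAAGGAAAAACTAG

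All 3 ends lie on the plus strand of chromosome 6 and start in exon 3: chr6:117173559-117173582 for Cxcl12-202, with the other ends reaching into exon 4 at position 117178598 for Cxcl12-203 and 117176179 for Cxcl12-201. Cxcl12-202, with 89 codons, held 82.5% ± 2.40 of the gene's TPM. Cxcl12-203, with 93 codons, held 11.9% ± 1.51. Cxcl12-201, whose 119 codons add the long run rich in lysine and arginine codons shown last, held 1.93% ± 0.168, and a transcript with a retained intron held 3.74% ± 1.06. By TPM the order of the 4 was the same in both libraries. By expected counts, which are not corrected for length, Cxcl12-202 held 69.9% and 74.1%, Cxcl12-203 held 19.1% and 16.2%, and Cxcl12-201, the longest transcript, held 4.89% and 5.6%. On that measure the retained-intron transcript, at 6.10% and 4.13%, lay above Cxcl12-201 in replicate 1 and below it in replicate 2.

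Ccl11 (ENSMUSG00000020676; chromosome 11, 82057823 to 82062955, plus), which encodes eotaxin, the ligand that brings eosinophils into the gut, was the highest CC ligand at 70.5 TPM in replicate 1 and 85.7 in replicate 2. It was followed within the monocyte, macrophage and eosinophil group by Ccl9 at 12.8 and 9.42 TPM and Ccl6 at 12.6 and 8.28 TPM, both ligands of Ccr1. Ccl11 was higher than any other CC ligand in either library. Of the 16 genes of this group 9 were detected, and the group's summed level was 122 ± 0.276 TPM.

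The monocyte attractants of the group were low. Ccl2, the main ligand of Ccr2, stood at 3.86 and 3.75 TPM. Ccl24, a second eosinophil attractant, stood at 3.61 and 2.30 TPM. Ccl12 was at 2.68 and 1.46 TPM and Ccl7 at 1.49 and 1.41, from 35 and 11 and from 32 and 17 counts. These ligands bind Ccr2 or Ccr3, and the 4 of them were above 1 TPM in both pools on few reads. Of the receptors, Ccr2, carried by monocytes that enter tissue, was at 6.89 and 3.52 TPM and Ccr1 at 4.03 and 3.60 TPM. Ccr3, the eosinophil receptor for Ccl11, was at 0.14 and 0.28 TPM from 14 and 15 counts.

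Part of the signal of Ccl9 and Ccl6 was assigned to transcripts with no coding sequence. A 398-base transcript of Ccl9 annotated as non-coding held 55.2% ± 6.14 of the gene's TPM on 69.6 and 24.6 of its counts, since TPM weights short transcripts up. The protein-coding Ccl9 transcript alone stood at 5.16 and 4.63 TPM. For Ccl6 a transcript with a retained intron held 39.1% ± 12.5, and the coding one stood at 6.57 and 5.77 TPM. Counting protein-coding transcripts alone, 23 genes were still at 1 TPM or more in both libraries. Cxcl16 (3.40 and 5.13), Ccl27a (18.6 and 15.9) and Ccl25 (13.7 and 7.87 TPM) were also lower than their gene totals on that measure.

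Among lymphoid homing genes, which build lymph nodes and steer lymphocytes and dendritic cells into them, 2 of 6 were detected. Ccl21a (ENSMUSG00000094686; chromosome 4, 42772860 to 42773993, minus), a product of lymphatic endothelium and lymph node stroma, was at 34.9 and 30.5 TPM. Cxcl13 (ENSMUSG00000023078; chromosome 5, 95956951 to 95961068, plus), made by lymphoid tissue organiser cells and attracting B cells, was at 27.3 TPM in replicate 1 and 19.1 in replicate 2. Both were well above the receptors of the group, Ccr7 at 0.16 TPM in each library and Cxcr5 at 0.41 and 0.25. Ccl19, the other Ccr7 ligand, was listed at 0 in both, but 52.0% of its 50-base stretches recur in Ccl19-ps1, Ccl19-ps3, Gm12407 or Gm2564, so reads from these stretches could have been assigned to those genes. The depositors' own uncertainty of its count (posterior standard deviation) was 1.49 counts in replicate 1 and 0.67 in replicate 2. The 5 lymphatic endothelium markers were all detected, with sums of 28.6 and 25.9 TPM, while 1 of 8 T and B lymphocyte markers was, with sums of 4.70 and 3.94 TPM and Cd8a listed at 0.

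The level of Ccl21a depends on how reads were split among near-identical genes on chromosome 4. Its transcript shares 71.6% of its 50-base stretches with Ccl21b, Gm10591, Gm13304 or Gm21541. Gm21541 drew 508 counts in replicate 1 and 37.7 in replicate 2, with posterior standard deviations (the depositors' own measure of how uncertain the split is) of 60.2 and 43.0 counts. Gm13304 drew 43.3 and 173 counts with posterior standard deviations of 59.9 and 46.8. These copies thus traded places between the libraries, and the split between them is uncertain. Ccl21a itself drew 825 and 403 counts. Its posterior standard deviation was below that of both copies in each library, and was 13.1 counts in replicate 2. On this measure the count of Ccl21a was better determined than those of Gm21541 and Gm13304. Summed over the 5 genes the level was 58.2 and 47.4 TPM, of which Ccl21a held 59.97% and 65.4% of the counts, and the sum still lay below Ccl11 and above Ccl27a in each library.

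Ccl21b, a member in its own right, was at 0 TPM in replicate 1 and 0.20 in replicate 2. This level is not settled, since 100% of its 50-base stretches recur in Ccl21a or the other copies. Its posterior standard deviations were 9.14 and 8.72 counts, on counts of 0 and 1.06. The depositors' posterior mean TPM for Ccl21b was 1.15 in replicate 1 and 2.06 in replicate 2. Its 402 coding bases differ from those of Ccl21a at 2 positions, counted from 1 at the A of the start codon, with the base of Ccl21a given before the position: T84A, which leaves the amino acid of codon 28 the same, and C194T, which changes that of codon 65. The stretch around each is shown with the differing base in capitals, since only reads over such bases can separate the coding parts.
Ccl21a, position 84: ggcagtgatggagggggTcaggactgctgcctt
Ccl21b, position 84: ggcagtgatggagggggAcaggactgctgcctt
Ccl21a, position 194: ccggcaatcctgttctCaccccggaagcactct
Ccl21b, position 194: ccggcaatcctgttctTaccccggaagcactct

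In Ccl21a these stretches join exons 1 and 2 within chr4:42773732-42773852 and exons 2 and 3 within chr4:42773527-42773653 on the minus strand. In Ccl21b they join exons 1 and 2 within chr4:42255833-42255953 and exons 2 and 3 within chr4:42256032-42256158 on the plus strand. The transcript annotated for Ccl21b ends with its coding sequence at 402 bases, while that of Ccl21a has 870, so reads over the untranslated parts can be assigned to Ccl21a but not to Ccl21b.

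**Figure D2:**
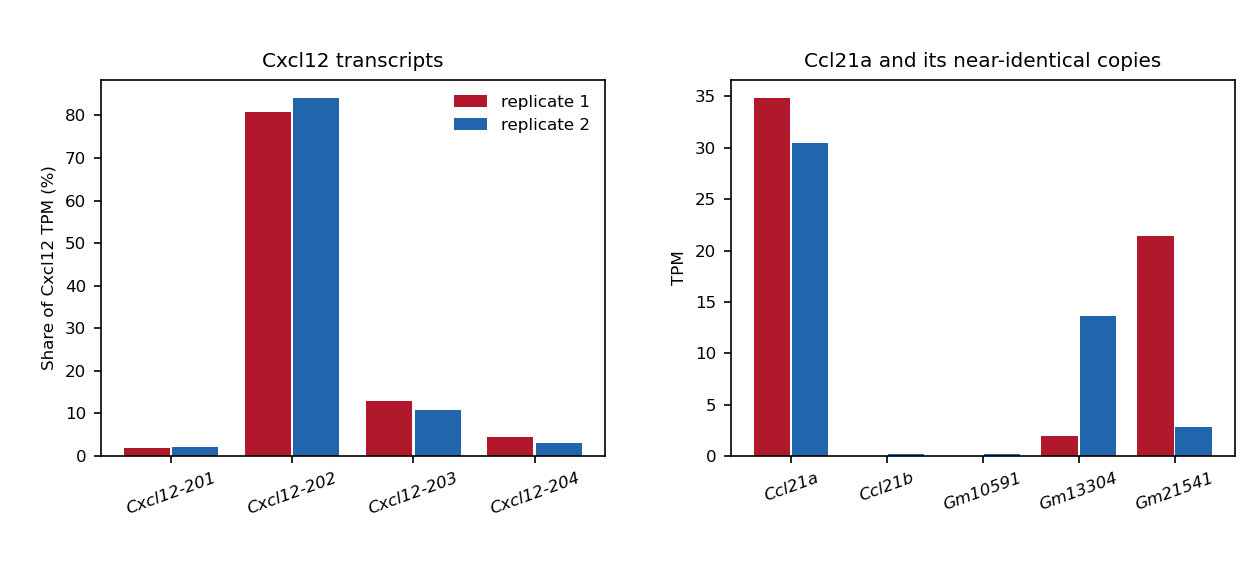
Left, share of the gene's TPM (%) held by each of the 4 Cxcl12 transcripts; right, TPM of Ccl21a and its 4 near-identical copies, with 1 bar for replicate 1 and 1 for replicate 2. Cxcl12-202 is the tallest bar in both libraries, while Gm21541 (21.5 and 2.85 TPM) and Gm13304 (1.91 and 13.7 TPM) exchange order between them.

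Epithelial and mucosal chemokines were detected as ligands only, with 4 of 10 genes of the group at 1 TPM. Ccl27a (ENSMUSG00000073888; chromosome 4, 41769467 to 41774247, minus), known as an attractant made by keratinocytes, was at 27.3 and 25.3 TPM. Ccl25 (ENSMUSG00000023235; chromosome 8, 4325210 to 4360020, plus), which draws thymocytes and gut-homing T cells, was at 16.8 and 12.7 TPM. Cxcl14 (ENSMUSG00000021508; chromosome 13, 56288643 to 56296551, minus), an epithelial chemokine whose receptor is not settled, was at 8.11 and 7.91 TPM. Ccl20 (ENSMUSG00000026166; chromosome 1, 83116766 to 83119167, plus), made by epithelium over lymphoid tissue, was at 6.12 and 6.62 TPM. Their libraries overlapped for no pair of these 4 genes. The receptors Ccr9, Ccr10 and Ccr6 lay between 0.20 and 0.37 TPM, Cxcl17 was at 0.49 and 0.44 TPM, Ccl28 at 0.06 in each library, and Ccl27b was listed at 0.

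Ccl27a is a further gene with copies: 45.0% of its 50-base stretches recur in Ccl27b, Gm13306, Gm20878, Gm21586 or Gm21953. Here Ccl27a itself held 89.2% and 91.5% of the counts of the 6 genes, so the split mattered less than for Ccl21a. Its reads were spread over 20 annotated transcripts, and the leading one differed between the libraries: Ccl27a-206 with 38.9% of the TPM in replicate 1 and Ccl27a-204 with 27.7% in replicate 2. Cxcl16 was the other detected gene whose leading transcript by TPM differed. By expected counts Cxcl16-201 led in both libraries, with 65.7% in replicate 1 and 75.5% in replicate 2. In all, 15 of the 23 detected genes had more than 1 transcript in the tables, and 13 of these 15 had the same leading transcript by TPM in both libraries.

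The membrane-tethered ligands, which serve both as adhesion molecules and, once shed, as attractants, were at mid levels. Cx3cl1 (ENSMUSG00000031778; chromosome 8, 94772009 to 94782427, plus), or fractalkine, was at 9.27 and 11.1 TPM, all assigned to its full-length transcript. Cxcl16 (ENSMUSG00000018920; chromosome 11, 70453983 to 70459984, minus), which also serves as a scavenger receptor for oxidised lipids, was at 7.29 and 8.85 TPM. Both were higher in replicate 2 by TPM. Cxcr6, the receptor of Cxcl16, was at 0.84 and 0.58 TPM. Cx3cr1, the fractalkine receptor of macrophages, falls outside the symbols that chose the set and stood at 12.4 and 11.6 TPM, higher than Cxcr4, Ccr2 and Ccr1 in each library. All 9 macrophage markers were detected, with sums of 228 and 215 TPM.

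The atypical receptors were 3 of the 6 detected receptors. Besides Ackr3, Ackr1 (ENSMUSG00000037872; chromosome 1, 173331886 to 173333750, minus), which carries chemokines on red cells and venular endothelium, was at 3.50 and 2.74 TPM, and Ackr4 (ENSMUSG00000079355; chromosome 9, 104084157 to 104126933, minus), the scavenger of Ccl19, Ccl21 and Ccl25, at 3.29 and 2.48 TPM. Ackr2, which clears inflammatory CC chemokines, was at 0.27 and 0.39 TPM. Ackr1 exons share 25.7% of their bases with Cadm3 on the same strand, and Ackr4 shares 8.90% with Acad11 on the other strand, so reads there could be assigned to either gene. The same holds for Cxcl16 and Zmynd15, which overlap over 18.3% of the Cxcl16 exon bases on opposite strands; whether the libraries kept strand is not stated in the labels.

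Signalling receptors carry an Asp-Arg-Tyr motif at the inner end of the third transmembrane helix, where the G protein couples, and it is altered in several atypical ones. The codons for it are shown in capitals for the detected receptors that have it.
Cxcr4: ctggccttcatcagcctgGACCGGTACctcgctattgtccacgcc
Ccr1: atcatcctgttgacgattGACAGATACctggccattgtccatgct
Ccr2: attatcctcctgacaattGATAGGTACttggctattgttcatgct
Ackr3: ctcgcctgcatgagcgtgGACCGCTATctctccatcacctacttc
Ackr4: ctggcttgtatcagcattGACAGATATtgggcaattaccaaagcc

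These lie at chr1:128589494-128589538 (Cxcr4, minus, exon 2), chr9:123964078-123964122 (Ccr1, minus, exon 2), chr9:124106114-124106158 (Ccr2-202, plus, exon 1), chr1:90214223-90214267 (Ackr3, plus, exon 2) and chr9:104099315-104099359 (Ackr4-202, minus, exon 3). A search from codon 101 on for the 3 codons (GAC or GAT, any arginine codon, TAC or TAT) found them in 15 of 17 signalling receptors, the exceptions being Cxcr6 and Xcr1. It found them in 2 of 4 atypical receptors and not in Ackr1 or Ackr2. A match or its lack here describes the letters only. All 4 Ccr2 transcripts in the tables have 373 codons, and the leading one held 40.1% ± 3.17 of the gene's TPM.

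The neutrophil, interferon-inducible and T cell groups were near or under the detection limit. Of the 7 neutrophil-attracting genes, Cxcl15 alone was detected, at 1.57 and 1.90 TPM from 98 and 66 counts. Cxcl1, an early product of inflamed epithelium, was at 0.76 and 0.75 TPM, and the receptor Cxcr2 at 0.76 and 0.43. The 8 neutrophil markers were nonetheless all detected, with sums of 710 and 522 TPM. Most of each sum came from S100a8 (389 and 258 TPM) and S100a9 (190 and 127 TPM). Both are also made by squamous epithelium, and how much of their RNA came from it was not tested. Of the 3 interferon-inducible genes none was detected; Cxcl10 was at 1.44 and 0.82 TPM, Cxcr3 at 0.42 and 0.39 and Cxcl9 at 0.02 and 0. Of the 7 other T cell and dendritic cell genes none was detected either, with Ccr8 the highest at 0.80 and 0.88 TPM.

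In all, 35 members were not detected, 20 of them ligands and 14 signalling receptors. Among those just under the limit were Cxcl10, which passed 1 TPM in replicate 1 alone, Ccr8 at 0.80 and 0.88 TPM, and Ccl5 at 0.83 TPM in both. Of the 35, 23 had a value above 0 in both libraries. Ccl1, Ccl8, Ccl19, Ccl26, Ccl27b and Cxcr1 had no count in either library. A count of 0 allows up to 3 counts, which for these 6 genes is a level of up to 0.0822 to 0.534 TPM in replicate 1 and 0.147 to 0.955 TPM in replicate 2, counting error alone considered and not the split of reads between copies, which touches Ccl19 and Ccl27b. Below 3 counts in both libraries stood 13 members, these 6 included, and for them no level can be told from 0.

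Ligands were set beside the receptors that textbooks give for them. Of 31 ligands with a listed receptor, 9 were detected together with at least 1 receptor, 6 without any, 3 were undetected while a receptor was detected, and 13 had neither. The 9 were Cxcl12, Cx3cl1, Ccl2, Ccl6, Ccl7, Ccl9, Ccl12, Ccl21a and Ccl25, the last 2 only through the atypical receptor Ackr4. The 6 ligands with no listed receptor detected were Ccl11 and Ccl24 (Ccr3), Cxcl13 (Cxcr5), Ccl20 (Ccr6), Ccl27a (Ccr10) and Cxcl16 (Cxcr6). The atypical receptors Ackr1 (3.50 and 2.74 TPM) and Ackr2 were paired with no ligand here, and Ackr4 with Ccl19, Ccl21a and Ccl25 only. A ligand that any of these receptors binds could therefore stand among the 6. Among these listed pairs Ccl11 showed the widest gap, with the ligand at 70.5 TPM or more and Ccr3 at 0.28 TPM or less in either library. Levels in a pool do not show which cells hold ligand or receptor.

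**Figure D3:**
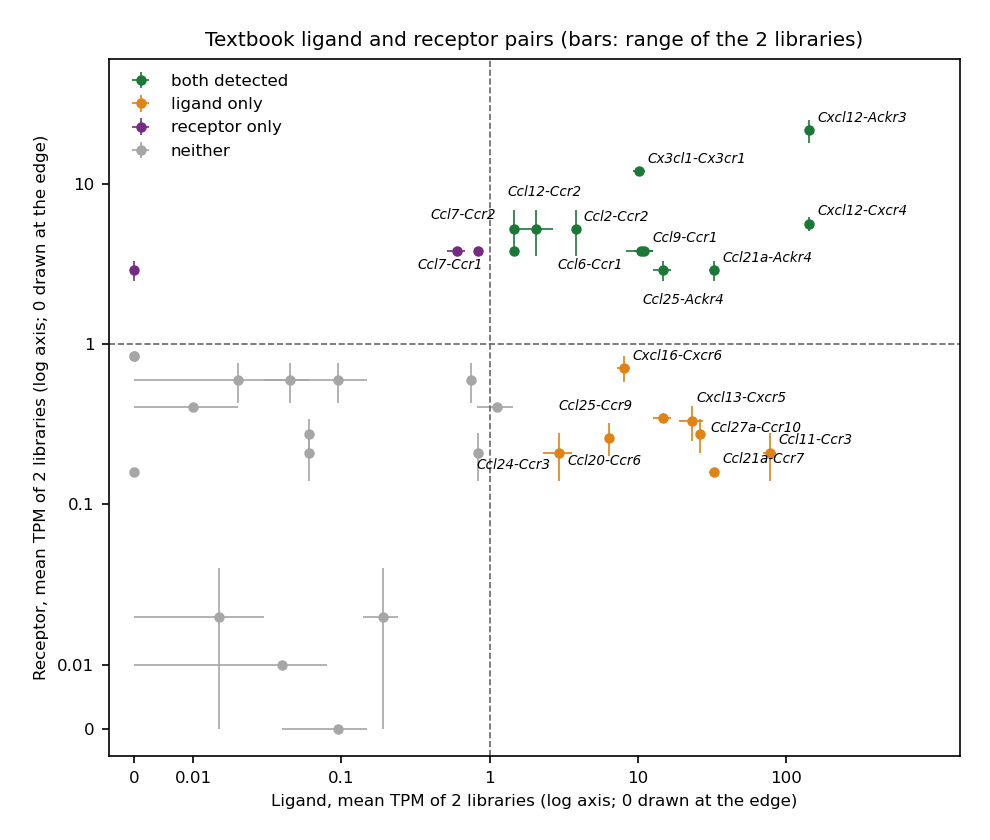
Mean TPM of ligands (horizontal, log axis) against that of a textbook receptor (vertical, log axis), with bars for the range of the 2 libraries and dashed lines at 1 TPM. Pairs such as Ccl11 with Ccr3 and Cxcl13 with Cxcr5 lie at the lower right, where the receptor of the pair did not reach 1 TPM. Cxcl12 with Ackr3 and Cxcr4 lies at the upper right.

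Many of the genes sit side by side in the genome, and neighbours differed widely in level. With gaps of up to 500 kb allowed, 37 of the 58 genes fell into 9 clusters and 21 stood alone; 13 of the 37 and 10 of the 21 were detected. In the chromosome 11 cluster of 6 CC ligands (82035571 to 82305690), Ccl11 lies 10.3 kb from Ccl7 and 38.9 kb from Ccl12. Both neighbours lay at or under 2.68 TPM in each library beside 70.5 and 85.7 for Ccl11, and the next genes, Ccl8 and Ccl1, had no count. In the second chromosome 11 cluster (83525778 to 83664683), Ccl9 and Ccl6 are adjacent and alone passed 1 TPM among 5 genes. On chromosome 9, Ccr1 and Ccr2 were detected and Ccr3, which lies between them, was not. On chromosome 5, the 5 neutrophil-attracting ligands between 90759360 and 90905938 lay at or under 1.90 TPM in each library.

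**Figure D4:**
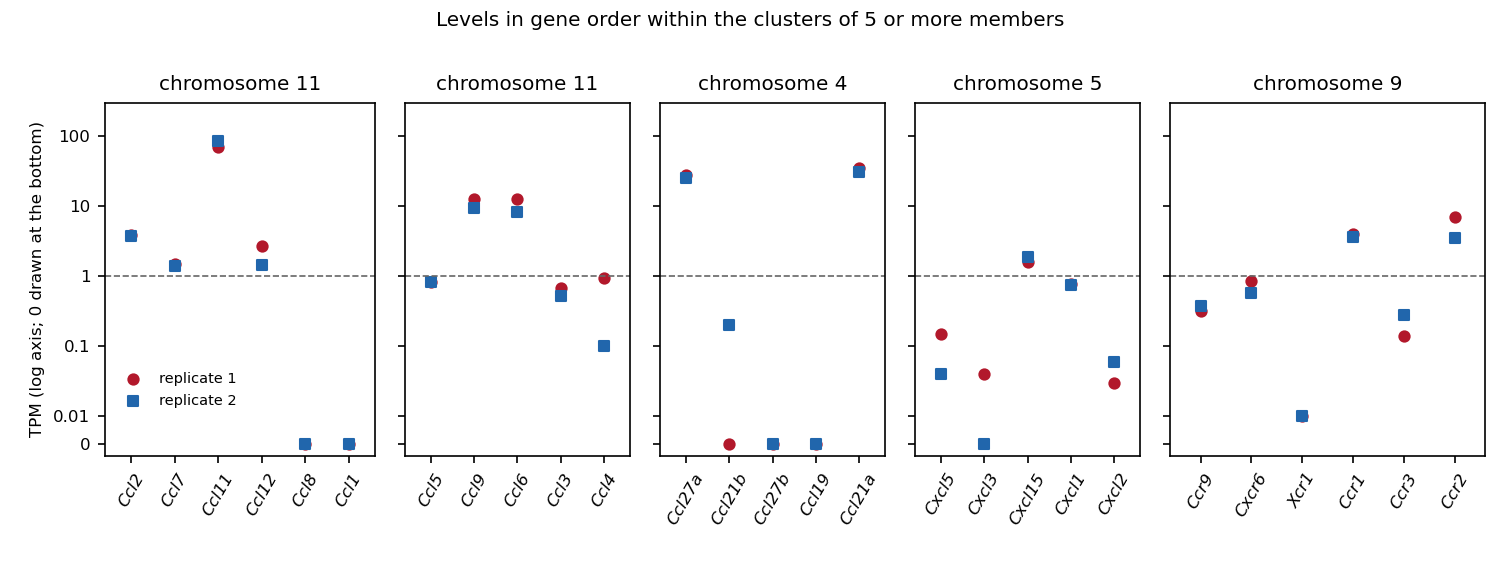
TPM (log axis) of genes in their order along the chromosome for the 5 clusters with 5 or more members, in replicate 1 (circles) and replicate 2 (squares); spacing is not to scale and the dashed line marks 1 TPM. Ccl11 (70.5 and 85.7 TPM) stands above its neighbours Ccl7 and Ccl12 on chromosome 11, and Ccl8 and Ccl1, farther along, are listed at 0.

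The 2 pools were compared by the log2 ratio of replicate 1 over replicate 2 after scaling for library size, over genes past a low-count filter. Of the 58 members 34 passed, beside 71.8% of protein-coding genes, and these include all 23 detected ones. None of the 34 was more than 2-fold apart, beside 2.02% of protein-coding and 3.58% of all genes past the filter. With so small a background share, the count of 0 among 34 says little about these genes. The median ratio over the 34 was 0.11 and over protein-coding genes 0.00. Within 0.5 of zero lay 70.6% of the members and 91.3% of the protein-coding genes, and 23 of 34 members were higher in replicate 1, beside 51.1% of protein-coding genes. The 2 sets were not matched for counts, and 11 of the 34 members were not detected. As ratios on few counts spread more widely, the shares do not show that these genes varied more than others. Scaling by the spike-in RNA moved the median of all genes to -0.57 and that of the members to -0.42, so a direction here is relative to the other genes of the library.

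Ccr2 stood highest, with 669 and 198 counts and a log2 ratio of 0.95, a 1.93-fold difference, and a 95% interval from 0.72 to 1.19 that covers counting error only (exact Clopper-Pearson on the split of the counts). Ccl24 (0.67, interval 0.20 to 1.20), Cxcl13 (0.55, 0.38 to 0.74), Ccl25 (0.51, 0.27 to 0.77) and Ccl6 (0.48, 0.22 to 0.76) were also higher in replicate 1 relative to other genes. On the other side were Ackr3 (-0.42, -0.53 to -0.31), Cxcl16 (-0.36, -0.58 to -0.15), Ccl11 (-0.25, -0.34 to -0.15) and Cx3cl1 (-0.23, -0.38 to -0.08). The interval left out 0 for 15 of the 34, 11 of them higher in replicate 1 and 4 in replicate 2. The same count was not made over all genes past the filter, so it cannot be read as a trait of these genes. On many counts the interval leaves out 0 even at a small ratio. Cxcl12, the most deeply counted gene, had a ratio of 0.10 (0.05 to 0.15). Ccr2 and Ackr3 therefore moved in opposite directions between the pools by more than counting error, and with 1 library a side the difference has no replicate check.

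Marker genes of several tissues moved between the same libraries. The median log2 ratio was 4.56 over 7 skeletal muscle markers, 0.96 over 3 spleen mesenchyme, 0.79 over 5 mast cell, 0.30 over 8 neutrophil, 0.28 over 5 lymphatic endothelium, 0.28 over 4 liver and 0.05 over 9 macrophage markers. Every marker past the filter in the skeletal muscle, spleen mesenchyme, mast cell, lymphatic endothelium and liver lists was higher in replicate 1. The mast cell marker Fcer1a did not pass the filter and stood at 0.22 and 0.26 TPM from 6 and 4 counts. The median was -0.56 over 6 squamous and -0.49 over 6 glandular epithelial markers, each lower in replicate 1 for 6 of 6 genes. The medians of the remaining lists lay between -0.23 for smooth muscle and 0.28 for platelet markers, and the dendritic cell markers ranged from -0.94 to 1.24. Of the 9 macrophage markers 7 were higher in replicate 1, with ratios from -0.09 for Csf1r to 0.32 for C1qa, where that of Ccr2 was 0.95. The part of these shifts in the ratios of Ccr2, Ccl25, Cxcl13, Ackr3 and the other members was not tested.

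**Figure D5:**
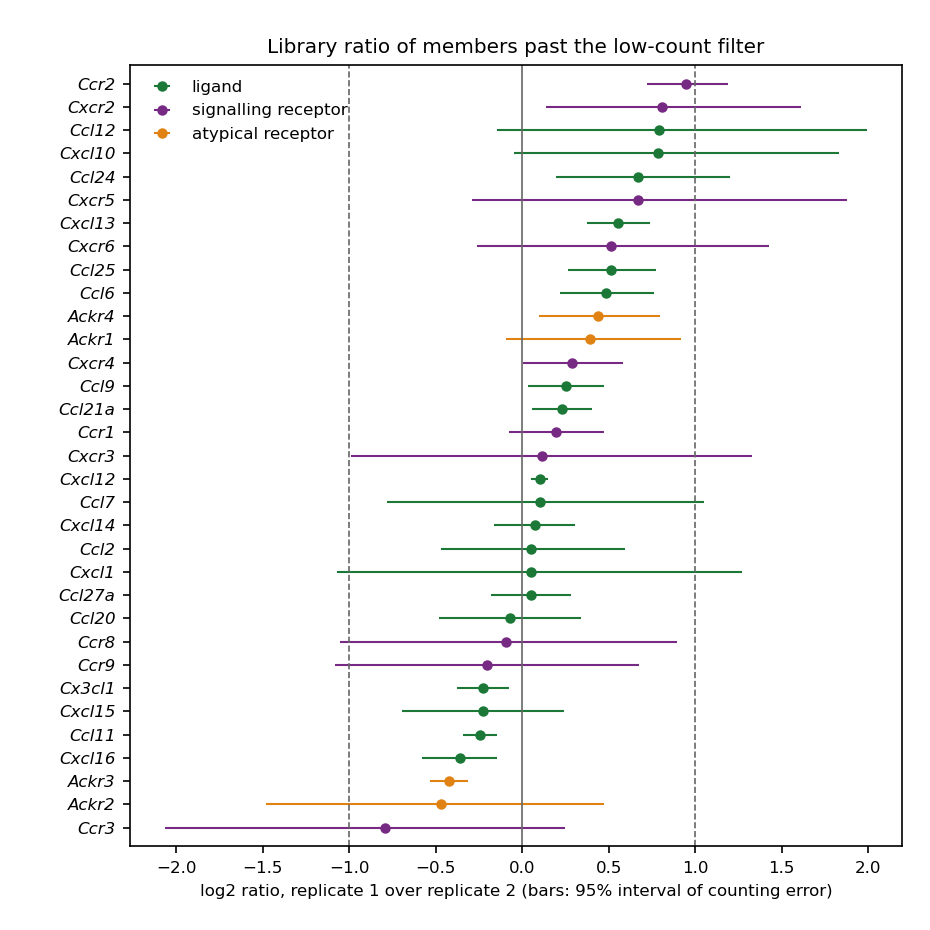
Log2 ratio of replicate 1 over replicate 2 for 33 members past the low-count filter, coloured by kind, with 95% intervals of counting error; dashed lines mark 2-fold. All 33 points lie between the dashed lines, from Ccr3 at -0.80 on 14 and 15 counts to Ccr2 at 0.95, and the widest bars belong to genes with few counts.

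Genes that act downstream of the receptors were present throughout. Of 21 G protein and effector genes 20 were detected, led by the G protein subunit gene Gng5 at 801 ± 23.5 TPM, the small GTPase genes Cdc42 at 594 ± 26.6 and Rhoa at 414 ± 20.99, and lowest for Pik3r5, a leukocyte lipid kinase subunit, at 0.59 ± 0.0707. These genes are used by many receptors. Of 9 desensitisation genes 8 were detected, with Rgs2 highest at 68.0 ± 1.44, Grk2, the main receptor kinase, at 14.6 ± 2.36 and Arrb2, an arrestin, at 12.2 ± 0.233, and Rgs1, a lymphocyte regulator, lowest at 0.15 ± 0.0566 TPM. Of 8 related genes that the symbols did not select, 6 were detected: Rarres2, which encodes chemerin, at 93.3 ± 6.58, the platelet chemokine Pf4 at 65.5 ± 9.15 and Cx3cr1 at 11.96 ± 0.566 TPM, with Ccr1l1 lowest at 0.07 ± 0.0283.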

How the data were processed

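RNA sequencing of 2 libraries of embryonic stomach was used. Per the deposited text files, the assembly was mm10 with gene models of release M4; which aligner and quantifier were used is not given in the sources used here. Per the file headers, each table holds expected counts, which the authors estimated per gene or transcript and which need not be whole numbers. The deposited TPM corrects these for transcript length and sums to a fixed total per library, and a posterior mean TPM stands beside it. The deposited FPKM corrects the same counts for length and for the number of reads.

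Names, positions and coding sequences came from GENCODE M21, which is newer but uses the same assembly (GRCm38). The members and lists were chosen with earlier results of these data known. Named with values were every detected member and every member of the CXCL12 axis, other members by symbol and range, and of each further list the 3 highest and the lowest. Expected counts were rounded, filtered with filterByExpr and given TMM factors with edgeR 4.0.16 under R 4.3.3, spike-ins left out; the log2 ratio used a prior count of 2. The ratio step was tested on simulated data. With 1 group no test was run. DESeq2 1.42.0 size factors, spike-in scaling and other thresholds were alternatives. Intervals and the floor of 3 counts cover counting error only. Other steps used Python 3.11.15, scipy 1.17.1, pandas 2.3.3 and matplotlib 3.10.9. The values of 1 member, included in the counts, are not reported here.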

Additional observations from a re-analysis of the deposited data

How the results depend on the processing

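No paired analysis was possible because the labels give 1 group. The count of 23 detected genes ranged from 20 at 2 TPM to 30 at 0.5 TPM and stood at 21 with FPKM and 26 with posterior mean TPM; leaving out replicate 1 or replicate 2 gave 24 each. Of alternatives added after the data were seen, protein-coding transcripts alone gave 23 and a limit of 10 counts in both libraries gave 34. The count beyond 2-fold was 0 with DESeq2 size factors, a prior count of 0.5 or TPM ratios. With no filter it was 3, the genes Ccl4 (log2 ratio 2.12, 16 and 1 counts), Cxcl5 (1.16, 7 and 1) and Ccr4 (1.13, 3 and 0). With spike-in scaling it was 1, Ccr3 at -1.31 on 14 and 15 counts. The median ratio of the members, 0.11, was between 0.10 and 0.14 under the other settings and -0.42 with spike-in scaling, which changed the sign of 14 of 23 detected genes. Summing near-identical copies, also added later, gave Ccl21a a ratio of 0.36 in place of 0.23. Leading transcript shares moved by more than their SD for 6 of 15 genes when counts replaced TPM. At this depth levels under about 1 TPM rest on few counts.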

Other observations

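Genes that present and process chemokines were detected almost in full. All 16 heparan sulphate genes, whose chains hold chemokines at cell surfaces, reached 1 TPM in both libraries, from the core protein genes Gpc3 at 471 ± 25.0, Sdc1 at 159 ± 17.9 and Sdc4 at 133 ± 16.7 TPM (SD, n = 2) to the sulphotransferase gene Hs6st1 at 4.10 ± 0.311. Of 9 proteases that cleave or shed chemokines 8 were detected: the matrix proteases Mmp2 at 108 ± 7.59 and Mmp14 at 97.1 ± 3.13 led, followed by Adam10, the sheddase of Cx3cl1 and Cxcl16, at 70.2 ± 1.20, and Ctsg was lowest at 1.07 ± 0.424 TPM.

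Of 18 inflammatory and interferon genes 8 were detected, and these were mostly regulators that resting cells also express: Nfkbia at 55.6 ± 1.25, Rela at 39.6 ± 1.84 and Irf1 at 22.7 ± 2.65 TPM. The cytokine genes of the list, Tnf, Il1a, Il1b, Il6 and Ifng, lay between 0.05 and 0.35 TPM in either library, and Il17a and Ifnb1 were listed at 0.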
